A study of Mus musculus with 9 samples.

Results

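The genes described here carry the output of the circadian clock to the rest of the cell: the PAR bZIP transcription factors Dbp, Tef and Hlf, the repressor Nfil3, the E-box repressors Bhlhe40, Bhlhe41 and Ciart, and the output enzymes Noct and Usp2. The rule that chose them uses their names, and all 9 were found among the 32285 genes of the deposited table and passed the filter on low values, which 12100 genes passed in all. RNA sequencing was done on the liver of mice in 3 groups of 3 libraries. By the labels, mice of all 3 groups, controls included, received tamoxifen. The study works with mice that carry a piggyBac CAG-CreERT2 transgene (a tamoxifen-activated Cre recombinase behind the ubiquitous CAG promoter), a loxP-stop-loxP allele of a tetracycline-dependent transactivator and a tetO-Venus-ires-mCherry reporter, but the genotype of the mice sequenced here is not given in the sources used here. The control group received no antibiotic. The Dox group drank doxycycline hyclate and the Tc group tetracycline hydrochloride, each at 2 mg/mL in sweetened water for 7 days from 4 weeks of age. Whether control mice drank sucrose and the hour at which livers were collected are not given in the sources used here, and the hour was therefore not a term of any test. The study asked how far the transcriptional changes caused by these related antibiotics differ in vivo.

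In liver, as in most tissues, the transcription factors CLOCK and ARNTL (also called BMAL1) bind E-boxes and switch on, once a day, their own inhibitors (Per and Cry genes) and a layer of output genes. DBP, TEF and HLF are activators that bind D-boxes, and NFIL3 is a repressor that binds the same element, so that D-box genes follow the balance of the activators and the repressor through the day. BHLHE40, BHLHE41 and CIART (also called CHRONO) hold back CLOCK and ARNTL. In the liver of mice, Dbp and Arntl are known to peak at opposite times of day, and PAR bZIP factors are known for driving daily rhythms of genes for drug and lipid metabolism.

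The promoter sequences are shown first because the E-box (CACGTG on either strand, a palindrome) is the element through which the clock reaches several of these genes. RefSeq promoters of GRCm38.p6, from 250 bases before to 50 bases after a start site, were matched by symbol for 8 of the 9 genes, with 2 start sites for Tef, which gave 9 promoters; Bhlhe40 is named only. An E-box was found in 4 of the 9 promoters, and in 7.15% of all 32851 promoters of the same length. The Ciart promoter held 3 E-boxes, with first bases 116, 58 and 44 bases before the start. Each Tef promoter held 1 E-box and the Bhlhe41 promoter held 1. The D-box letters TTATGTAA and TTACGTAA (both strands) were found in none of the 9, and in 0.938% and 0.119% of all promoters. The CRE letters TGACGTCA, the element of CREB family factors, were found in the Hlf promoter alone and in 1.79% of all promoters. Letters in capitals mark the E-box or, for Hlf, the CRE; each match describes these letters and is not evidence of binding.
Ciart, chr3:95882229-95882478, minus strand: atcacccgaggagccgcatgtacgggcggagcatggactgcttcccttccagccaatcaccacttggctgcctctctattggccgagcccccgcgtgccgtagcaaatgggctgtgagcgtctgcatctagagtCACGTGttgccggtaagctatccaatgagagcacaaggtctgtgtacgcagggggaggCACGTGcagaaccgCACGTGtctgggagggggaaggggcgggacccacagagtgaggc
Tef, first start, chr15:81802519-81802578, plus strand: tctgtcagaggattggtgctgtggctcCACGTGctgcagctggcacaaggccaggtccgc
Tef, second start, chr15:81811249-81811308, plus strand: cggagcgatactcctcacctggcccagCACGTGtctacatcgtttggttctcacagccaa
Bhlhe41, chr6:145865541-145865600, minus strand: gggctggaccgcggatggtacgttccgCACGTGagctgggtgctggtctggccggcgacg
Hlf, chr11:90390892-90390953, minus strand: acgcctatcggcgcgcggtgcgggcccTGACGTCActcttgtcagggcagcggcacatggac

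Values below are normalized counts, that is reads per gene divided by a size factor for each library, and reads on genes ranged from 7426136 to 12183041 per library with a median of 10330238. Differences are on the log2(normalized count + 1) scale. They were tested with limma, with Benjamini-Hochberg adjustment over the 12100 genes, and a gene was called where its adjusted p was under 0.05 and its fold change over 2. All 5 hepatocyte markers were detected in all 9 libraries, and their sum was between 1096058 and 1565396 normalized counts in controls, between 571171 and 784927 with Dox, below every control library, and between 765727 and 1225286 with Tc. Most of this sum was Alb, whose mean was 1203880 in controls and 439798 with Dox. The means of Apoa1 and Ttr were also lower with Dox, but in Dox library 1 both (45870 and 55767) were above every control library. The means of Cps1 (53675.9 in controls and 90059.3 with Dox) and Tat (16372.5 and 78936) were higher, so the markers did not move 1 way. Tat was at 159364 in Dox library 2, and at 13817 in Dox library 1, within the control range. The numbered libraries are the labels' replicates; the study calls them independent samples, and the labels do not tie them to mice. Library 3 of each group did not stand on its own: it was close to a weighted sum of libraries 1 and 2, with fitted weights of 58.4% and 41.7% in controls, 61.4% and 34.4% with Dox and 61.0% and 37.0% with Tc. For the 9 genes, the library 3 value lay between those of libraries 1 and 2 in 21 of 27 cases (6, 9 and 6 of the 9 genes in controls, Dox and Tc), where it did so for 46.0%, 78.1% and 50.7% of all tested genes, and its ratio to the weighted sum ranged from 0.757 to 1.28, and from 0.939 to 1.05 with Dox. Whether library 3 is independent of libraries 1 and 2 was not tested. If it is not, p-values over all 9 libraries are too small. Values without libraries 3 are therefore given beside the differences.

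**Figure D1:**
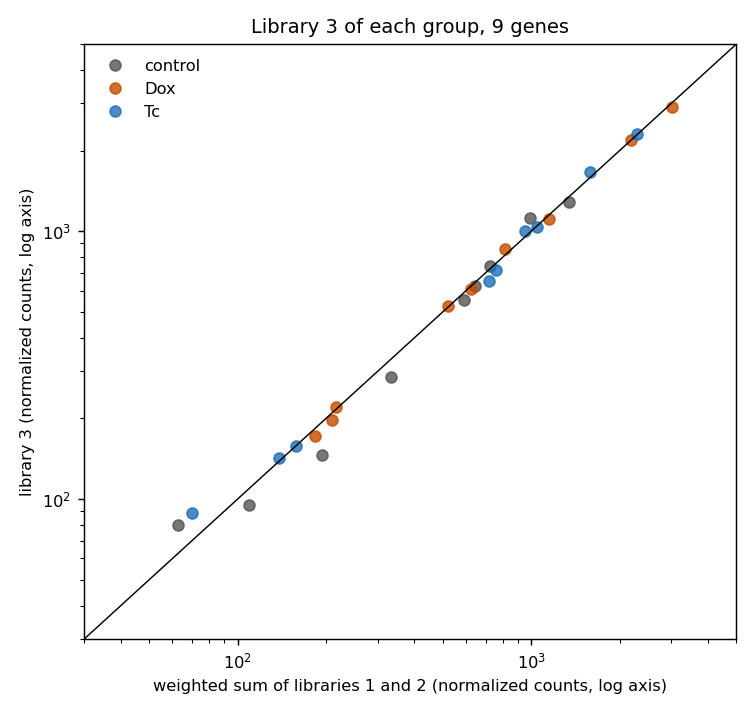
Normalized count of each of the 9 genes in library 3 (vertical, log axis) against the weighted sum of libraries 1 and 2 of the same group (horizontal, log axis), with 1 point per gene and group. The line marks equality, and the 27 points lie along it, with ratios from 0.757 to 1.28.

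Dbp, known for its wide daily swing in liver, had the widest split between Dox libraries among the activators. Dbp (ENSMUSG00000059824, GRCm38 chr7:45705088-45710203, plus strand) was at 911, 466 and 744 normalized counts in control libraries 1, 2 and 3. It was at 1746, 223 and 1114 in Dox libraries 1, 2 and 3, and at 1674, 1512 and 1669 in Tc libraries 1, 2 and 3. Dox library 2 was the lowest and Dox library 1 the highest of all 9, while the Tc libraries all lay above every control library. The Dox group could not be told from controls (log2 difference 0.15 ± 0.65 SE, limma adjusted p = 0.895). The Tc group was higher than controls by 1.25 on the log2 scale (± 0.65 SE), which was not called (adjusted p = 0.518). Without libraries 3 the differences were -0.06 and 1.29 (limma adjusted p = 0.986 and 1). Exons of Dbp overlap exons of Sphk2 on the opposite strand, which averaged 400.2 normalized counts, and the strand setting of the counting is not stated, so that reads in the overlap cannot be assigned to either gene.

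Tef, an activator with a smaller daily rhythm than Dbp, was higher with both drugs. Tef (ENSMUSG00000022389, GRCm38 chr15:81802421-81826863, plus strand) was at 1572, 1031 and 1290.4 normalized counts in the control libraries. It was at 2468, 1946 and 2189.8 with Dox and at 2372, 2283 and 2303.5 with Tc, so that no drug library overlapped a control library and the libraries of the drug groups overlapped each other. With Dox the difference was 0.78 ± 0.17 SE on the log2 scale, or 1.71-fold (95% interval from 1.31 to 2.24), which passed the adjusted p (limma, 0.0316) but not the fold threshold. With Tc it was 0.86 ± 0.17 SE, or 1.81-fold, with an adjusted p of 0.117. Without libraries 3 the differences were 0.78 and 0.87 on the log2 scale, with adjusted p of 0.573 and 1 (limma).

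Hlf, another PAR bZIP activator, was split between the Dox libraries as Dbp was. Hlf (ENSMUSG00000003949, GRCm38 chr11:90336536-90390895, minus strand) was at 645, 643 and 624 normalized counts in the control libraries, the tightest group of any of the 9 genes in controls relative to its mean. With Dox it was at 894, 211 and 607, and with Tc at 794, 629 and 649. Dox library 2 was the lowest of all 9 libraries and Dox library 1 the highest, and the groups overlapped. The log2 differences were -0.39 ± 0.44 SE with Dox (limma adjusted p = 0.580) and 0.11 ± 0.44 SE with Tc (adjusted p = 0.958). Without libraries 3 they were -0.57 and 0.13 (adjusted p = 0.756 and 1).

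Nfil3, the repressor at D-boxes, ran opposite to Dbp and Hlf in the Dox libraries. Nfil3 (ENSMUSG00000056749, GRCm38 chr13:52967209-52981073, minus strand) was at 157, 244 and 146 normalized counts in the control libraries. It was at 111, 334 and 172 with Dox and at 127, 166 and 142 with Tc. The Dox libraries held both the lowest and the highest value of the 9, the highest in Dox library 2, where Dbp and Hlf were lowest. Neither drug group could be told from controls (log2 differences 0.06 ± 0.37 SE with Dox and -0.30 ± 0.37 SE with Tc, limma adjusted p = 0.930 and 0.826). Leaving out libraries 3 gave differences of -0.03 and -0.43 (limma adjusted p = 0.990 and 1).

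Bhlhe40, an E-box repressor that also answers to growth factors and hypoxia, was raised with Dox and close to controls with Tc. Bhlhe40 (ENSMUSG00000030103, GRCm38 chr6:108660629-108666925, plus strand) was at 871, 1154 and 1119 normalized counts in the control libraries. It was at 4029.8, 1548 and 2911 with Dox and at 1076, 1061 and 1033 with Tc. Every Dox library lay above every control and every Tc library, by the least in library 2. The rise with Dox was called at 1.34 ± 0.31 SE on the log2 scale, or 2.53-fold (95% interval from 1.56 to 4.09, limma adjusted p = 0.0350). With Tc the difference was 0.02 ± 0.31 SE (adjusted p = 0.988). Without libraries 3 the Dox difference was 1.32 on the log2 scale, but its adjusted p was 0.572 by limma and 0.218 by DESeq2, and the call was also lost when any library other than Dox library 1 or 2 was left out (adjusted p from 0.0523 to 0.121). It was lost with the replicate block (adjusted p = 0.0582) and in a fit of only the 2 groups (0.0981) as well.

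Bhlhe41, the paralog of Bhlhe40, was the least even gene in the Dox group. Bhlhe41 (ENSMUSG00000030256, GRCm38 chr6:145858243-145865558, minus strand) was at 66.7, 56.6 and 80.1 normalized counts in the control libraries. It was at 328.5, 24.2 and 198 with Dox and at 98.6, 26.1 and 88.4 with Tc. Library 2 was the lowest of its group in all 3 groups, and the groups overlapped. The log2 differences were 0.79 ± 0.89 SE with Dox (limma adjusted p = 0.579) and -0.13 ± 0.89 SE with Tc (adjusted p = 0.977), and the sign of the second turned under DESeq2 and edgeR (0.07 and 0.06). Without libraries 3 they were 0.54 and -0.27 (limma adjusted p = 0.885 and 1).

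Ciart, the gene with 3 E-boxes above, had the most even rise with Dox. Ciart (ENSMUSG00000038550, GRCm38 chr3:95878503-95882251, minus strand) was at 122.8, 91.1 and 95.4 normalized counts in the control libraries. It was at 238, 202.5 and 219.9 with Dox and at 189.4, 113.3 and 158.3 with Tc. All Dox libraries lay above all others, Dox library 2 included, whereas the lowest Tc library overlapped the controls. The rise with Dox was called at 1.10 ± 0.21 SE on the log2 scale, or 2.14-fold (95% interval from 1.54 to 2.97, limma adjusted p = 0.0198), and the Tc difference of 0.55 ± 0.21 SE was not (adjusted p = 0.377). Without libraries 3 the Dox difference was 1.05 on the log2 scale with an adjusted p of 0.565 by limma and 0.392 by DESeq2. Leaving out control library 2, control library 3 or Dox library 3 alone also ended the call (adjusted p = 0.0815, 0.0914 and 0.0829).

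Noct and Usp2, the output enzymes, were higher in every Tc library than in any control library. Noct (Nocturnin, ENSMUSG00000023087, GRCm38 chr3:51224447-51251644, plus strand), a rhythmic phosphatase of NADP cofactors, was at 435, 188 and 286 normalized counts in controls. It was at 737, 204 and 526 with Dox and at 785, 763 and 715 with Tc, so that Dox library 2 fell among the controls. The log2 differences were 0.58 ± 0.46 SE with Dox (limma adjusted p = 0.422) and 1.40 ± 0.46 SE with Tc (adjusted p = 0.315), and neither was called. Usp2 (ENSMUSG00000032010, GRCm38 chr9:44067021-44095627, plus strand), a deubiquitinating enzyme, was at 663, 486 and 553 normalized counts in controls. It was at 1019, 552 and 858 with Dox and at 979, 949 and 999 with Tc. The Tc libraries were again close together and Dox library 2 again lay within the control range. The log2 differences were 0.48 ± 0.22 SE with Dox (adjusted p = 0.190) and 0.79 ± 0.22 SE with Tc (adjusted p = 0.245), and neither was called. When libraries 3 were left out, the differences with Dox and Tc were 0.44 and 1.43 for Noct (limma adjusted p = 0.820 and 1) and 0.40 and 0.76 for Usp2 (0.703 and 1).

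**Figure D2:**
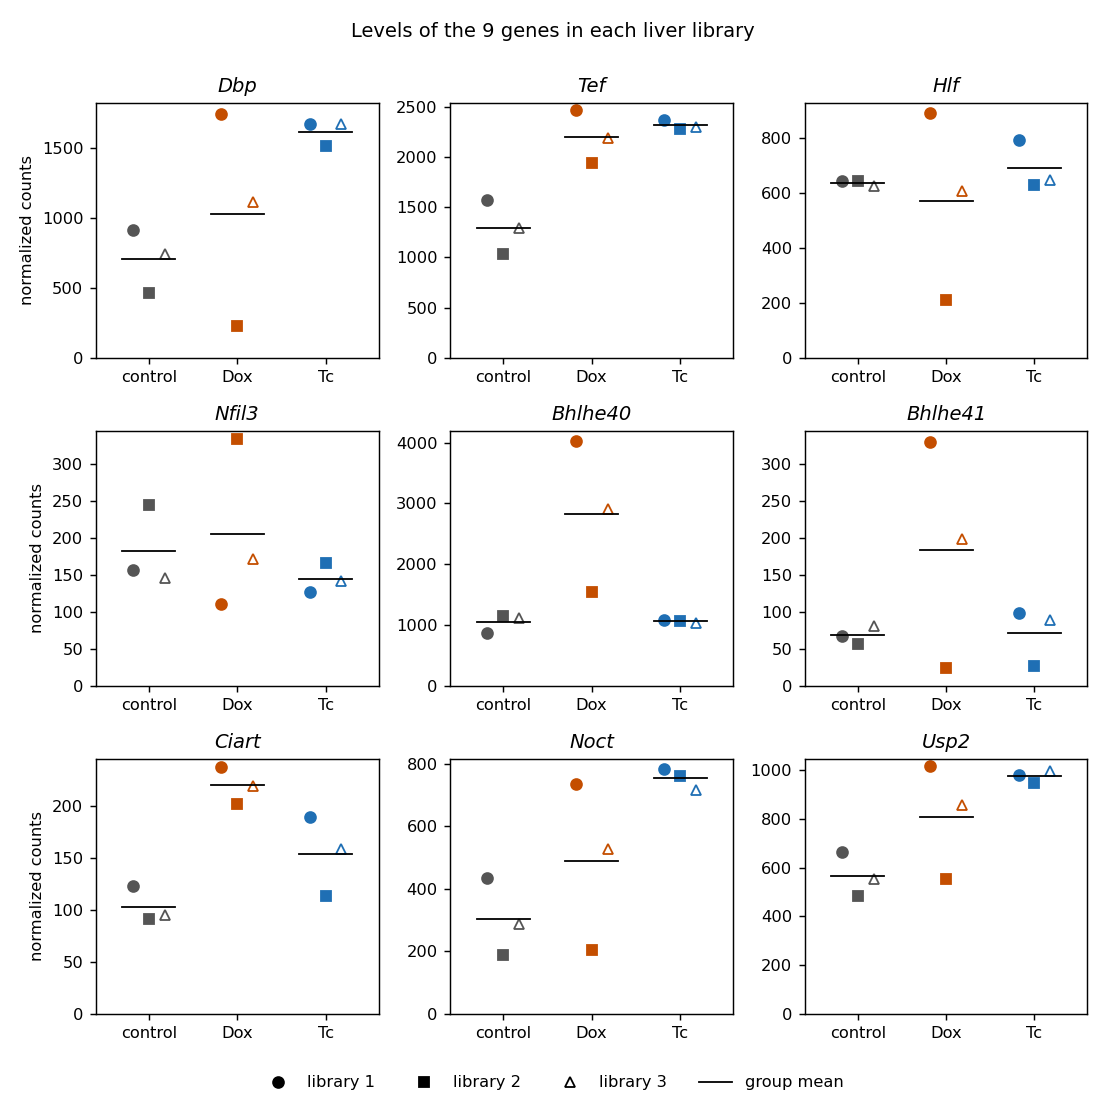
Normalized counts (vertical axis, from 0) of the 9 genes in each library, with 1 panel per gene; circles, squares and triangles are libraries 1, 2 and 3 of a group, and bars are group means. Dox library 2 lies apart from Dox library 1 for most genes (for Dbp 223 against 1746), whereas the Tc libraries lie close together for Dbp, Tef, Noct and Usp2.

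Counted over the set, Dox against control gave 2 of the 9 genes called, both raised (Bhlhe40 and Ciart), where 5% of all tested genes were called. Tc against control gave 0 of 9 called by limma and by DESeq2, where 0.165% of all genes were called; the unadjusted limma p was under 0.05 for 4 of the 9 and for 11.7% of all genes. DESeq2 on recovered reads called the same 2 genes for Dox against control, where it called 8.81% of the genes it tested, and its share for Tc against control was 1.46%. The share of these 9 genes called for Dox was thus above that of all genes, and with so few genes it is only a description. Without libraries 3, none of the 9 was called in any comparison. The limma share of all genes for Dox against control was then 0%, and the DESeq2 shares were 0.862%, 0.0694% and 0.246% for Dox against control, Tc against control and Dox against Tc. Unadjusted p-values were under 0.05 for 3 genes with Dox (Tef, Bhlhe40 and Ciart) and 1 with Tc (Tef), by limma and by DESeq2 alike, where the limma shares of all genes were 8.60% and 1.98%.

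The libraries of a drug group lay apart from the controls for Tef with either drug and for other genes with 1 drug. With Dox, 3 of the 9 genes (Tef, Bhlhe40 and Ciart) had every Dox library above every control library, where the libraries of 33.3% of all genes did not overlap. With Tc there were 4 such genes (Dbp, Tef, Noct and Usp2), where 30.7% of all genes did not overlap. The shares of all genes count both directions, and none of the 9 genes had every drug library below every control library. The count with Dox was no more than the share of all genes. With so few genes, the count with Tc is only a description. The median log2 difference of the 9 genes was 0.58 with Dox and 0.55 with Tc, with 8 and 7 of the 9 above 0, where the medians of all tested genes were 0.00 and 0.00. The median size of the difference, whatever its sign, was 0.58 and 0.55 for the 9 genes and 0.36 and 0.22 for all genes. Both comparisons use the same control libraries. A scaling that gave every library the same total moved the median of all genes by 0.17 on the log2 scale both for Dox against control and for Dox against Tc, relative to which these differences stand.

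Dox and Tc, which share the tetracycline ring system and differ in the position of a hydroxyl group, were compared at the same concentration and time for all 9 genes, with p-values adjusted over all 12100 genes. No gene was called by limma (0 of 9, where 0.215% of all genes were called), and DESeq2 called Bhlhe40 alone, where it called 4.72% of genes. The unadjusted limma p was under 0.05 for 2 of the 9, Bhlhe40 and Ciart, a share close to the 21.7% of all genes. Bhlhe40 was 2.49-fold higher with Dox than with Tc (95% interval from 1.54 to 4.03, limma adjusted p = 0.101), and the DESeq2 adjusted p was 0.000897 with all libraries and 0.514 without libraries 3. Ciart was 1.46-fold higher with Dox (95% interval from 1.05 to 2.02, limma adjusted p = 0.193). These 2 of the 9 genes had every Dox library above every Tc library, where the libraries of 24.6% of all genes did not overlap. For Tef the difference was -0.08 on the log2 scale with a 95% interval from -0.47 to 0.31, the narrowest of the set, and its sign turned to 0.09 with the same total per library. The widest was Bhlhe41, at 0.92 with an interval from -1.10 to 2.95. Dbp (-1.09, from -2.57 to 0.39), Noct (-0.81, from -1.85 to 0.23), Usp2 (-0.31, from -0.82 to 0.19), Hlf (-0.50, from -1.50 to 0.50) and Nfil3 (0.36, from -0.49 to 1.21) had intervals that held 0. Between the drugs, the limma differences without libraries 3 ranged from -1.35 (Dbp) to 1.22 (Bhlhe40), with adjusted p from 0.755 to 0.925. None of these intervals shows that the drugs act alike on a gene.

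**Figure D3:**
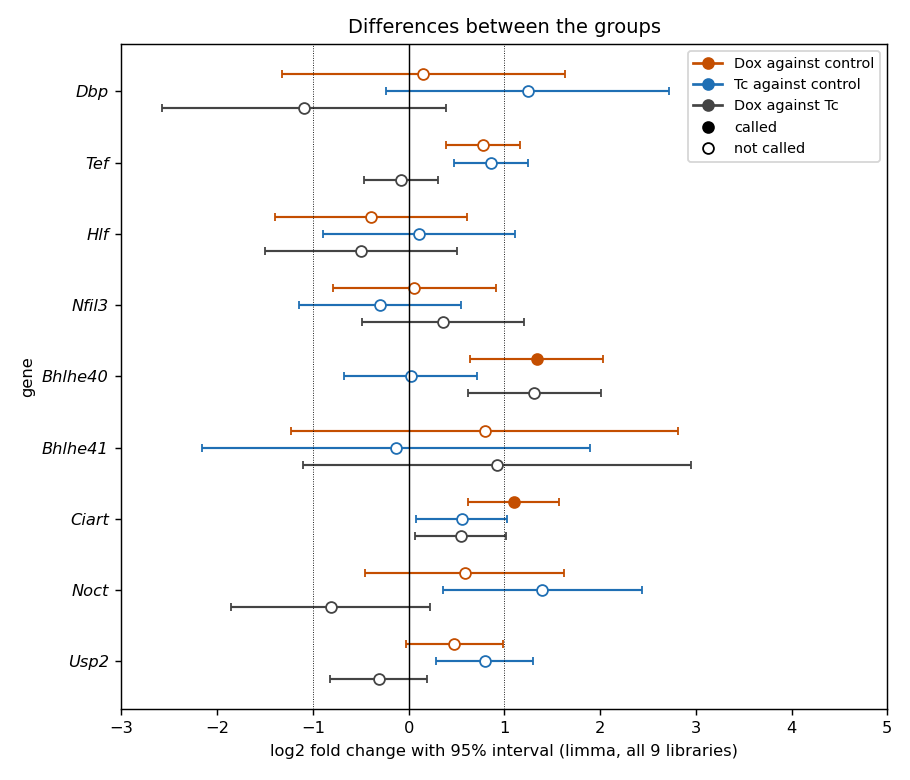
Log2 fold change (horizontal axis) of the 9 genes in the 3 comparisons, with 95% intervals from limma over all 9 libraries; filled points are called and dotted lines mark 2-fold. The filled points are Bhlhe40 and Ciart for Dox against control, at 1.34 and 1.10, and the widest intervals belong to Bhlhe41.

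The spread within the Dox group was of the size of the differences between groups. Between Dox libraries 1 and 2, 6 of the 9 genes differed over 2-fold, where 35.2% of all genes did. Bhlhe41 was 13.6-fold, Dbp 7.82-fold, Hlf 4.25-fold, Noct 3.62-fold and Bhlhe40 2.6-fold higher in Dox library 1, and Nfil3 was 3.02-fold higher in Dox library 2. Tef (1.27-fold), Ciart (1.18-fold) and Usp2 (1.85-fold) differed by less. Between control libraries 1 and 2, 1 of the 9 genes differed over 2-fold (Noct, 2.32-fold), where 4.84% of all genes did, and between Tc libraries 1 and 2 it was also 1 (Bhlhe41, 3.78-fold), where 8.45% did. Without Dox library 2, 5 of the 9 genes were called for Dox against control, all raised: Dbp (1.03 on the log2 scale, limma adjusted p = 0.0310), Bhlhe40 (1.72, 0.00127), Bhlhe41 (1.91, 0.0308), Ciart (1.15, 0.0107) and Noct (1.12, 0.0312). In the same fit Dbp and Noct were called for Tc against control (adjusted p = 0.0259 and 0.0230) and Bhlhe40 for Dox against Tc (0.00282). Over all 12100 genes, limma without Dox library 2 called 1102 for Dox against control, 221 for Tc against control and 179 for Dox against Tc. Calls thus rose over all genes too, from 605, 20 and 26 with all libraries. These fits hold Dox libraries 1 and 3, which may not be independent.

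The core clock gene Arntl also set Dox library 2 apart from Dox library 1. Arntl, the activator that binds E-boxes with CLOCK, was at 37.0, 62.8 and 59.8 normalized counts in controls, at 8.4, 349.7 and 117.9 with Dox and at 8.8, 12.6 and 5.9 with Tc. It was 41.5-fold higher in Dox library 2 than in Dox library 1, and Dox library 1 was at the level of the Tc libraries. Npas2, which can stand in for CLOCK, was at 13.8 in Dox library 2 and between 0 and 8.8 in the other 8 libraries. The 8.8 was in Dox library 3. The mean of Npas2 was too low to be tested, and at such low counts its order among libraries is only a description. The library in which Arntl was highest was thus the one in which Dbp, Hlf and Bhlhe41 were lowest and Nfil3 highest. For Bhlhe41 the margin was small (24.2 against 26.1 in Tc library 2). Dox library 2 was also the highest of all 9 libraries for Per1 (2267), Cry1 (268), Cry2 (1388), Nr1d1 (1568), Nr1d2 (1432) and Rora (2467), and the lowest for Per3 (199). Of these, Per1, Cry1, Cry2, Nr1d2 and Rora were chosen after their values were seen. The cause was not tested.

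**Figure D4:**
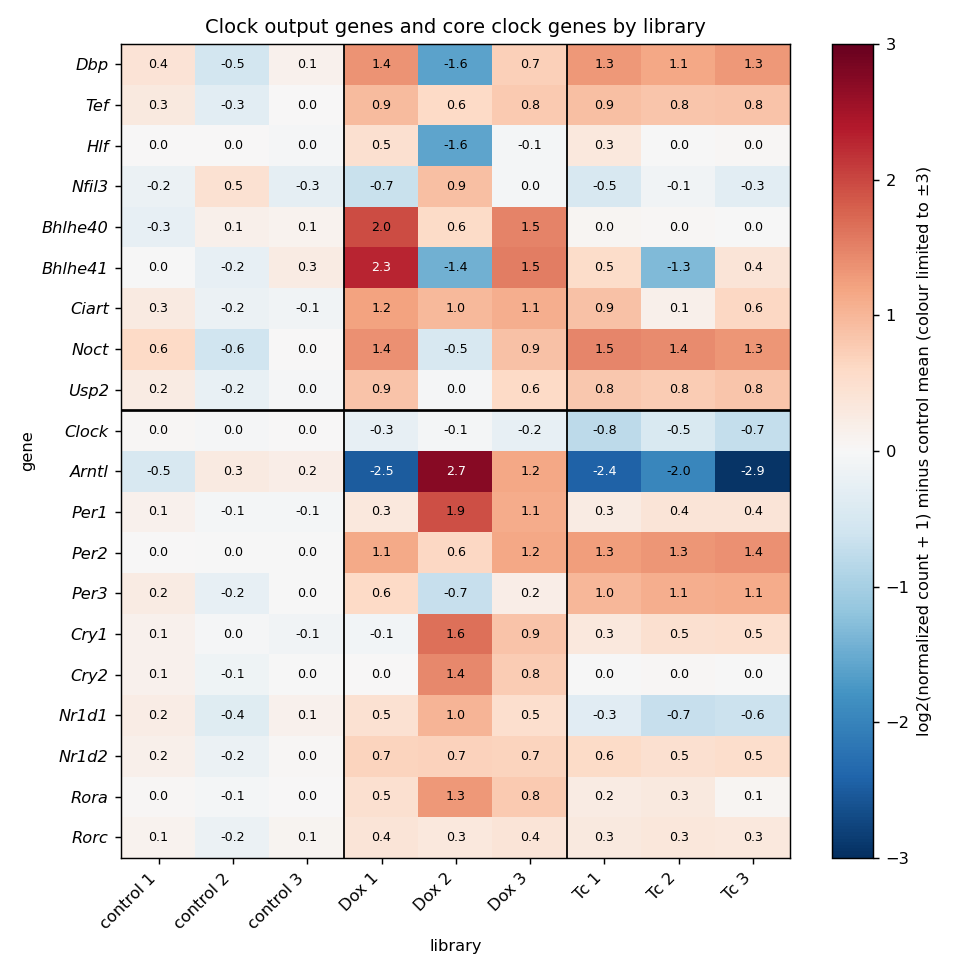
Log2(normalized count + 1) minus the control mean (colour, limited to ±3, with the value in each cell) for the 9 output genes (top) and 11 tested core clock genes (bottom) in the 9 libraries. Dox library 2 is below the control mean for Dbp, Hlf and Bhlhe41 and above it for Nfil3 and Arntl, the reverse of Dox library 1.

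Among the repressors of the core clock, Per2 was called with Tc. Per2 was at 188, 186 and 184 normalized counts in controls, at 412, 288 and 414 with Dox and at 446, 471 and 484 with Tc. It was raised with Tc by 1.32 ± 0.15 SE on the log2 scale (limma adjusted p = 0.0316), and it passed the adjusted p but not the fold threshold with Dox (0.97 ± 0.15 SE, adjusted p = 0.0131). Without libraries 3 the differences were 1.29 with Tc (adjusted p = 1 by limma and 0.202 by DESeq2) and 0.88 with Dox (0.559 by limma). The Per2 call with Tc was also lost with the replicate block (adjusted p = 0.0961) and on leaving out any control library, any Tc library or Dox library 3 (adjusted p from 0.0679 to 0.238). Per3, at 381, 272 and 318 in controls, was at 482, 199 and 368 with Dox and at 642, 683 and 694 with Tc, and was not called (adjusted p = 0.948 and 0.234). Nr1d1 (REV-ERB alpha), the repressor of Arntl, was at 907, 603 and 847 in controls, at 1069.8, 1568 and 1090.1 with Dox and at 610.3, 482 and 496 with Tc. For Nr1d1 every Dox library was above every control library, and the Tc libraries at 482 and 496 were below every control library, and neither difference was called (0.66 and -0.55 on the log2 scale, adjusted p = 0.0851 and 0.381). The limma differences without libraries 3, with Dox and Tc, were -0.05 and 1.04 for Per3 (adjusted p = 0.972 and 1) and 0.81 and -0.45 for Nr1d1 (0.573 and 1). Of the 11 core clock genes tested (of 12), limma called 0 with Dox, 1 with Tc (Per2) and 0 for Dox against Tc. Its called shares of all genes were 5%, 0.165% and 0.215%. With Dox the adjusted p was under 0.05 for 3 core clock genes. The unadjusted p was under 0.05 for 7 with Dox, 6 with Tc and 7 for Dox against Tc. Over all genes the unadjusted p was under 0.05 for 29.1% with Dox, 11.7% with Tc and 21.7% between the drugs. DESeq2 called 1 with Dox (Per1), 2 with Tc (Per2 and Per3) and 2 for Dox against Tc (Arntl and Nr1d1), and none without libraries 3. With all libraries it called 8.81%, 1.46% and 4.72% of all genes. The median log2 difference of the list was 0.68 with Dox and 0.32 with Tc, beside 0.00 and 0.00 for all genes.

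Genes that need PAR bZIP factors for their normal level in liver were examined as a list of 10 metabolic genes. Cyp2a5, a cytochrome P450 that hydroxylates coumarin, was at 2385, 828 and 1734 normalized counts in controls, at 7440.4, 36492 and 17023 with Dox and at 8388, 4526 and 6111 with Tc. It was raised with Dox by 3.47 ± 0.59 SE on the log2 scale (limma adjusted p = 0.0150), with its highest value in Dox library 2, where Dbp and Hlf were lowest. Acot1, a cytosolic acyl-CoA thioesterase, was at 80.4, 63.7 and 80.1 in controls, at 170.6, 360.0 and 249.9 with Dox and at 98.6, 80.0 and 81.7 with Tc, and was raised with Dox by 1.73 ± 0.26 SE (adjusted p = 0.0114). The other 8 of the 10 were not called with Dox, where limma called 5% of all genes. The genes went both ways, with 6 of the 10 higher with Dox than in controls. None was called with Tc or between the drugs by limma, with an unadjusted p under 0.05 for 3 and 6 genes (11.7% and 21.7% of all genes). DESeq2 called 5 with Dox (3 raised and 2 lowered), 2 with Tc (both raised) and 5 between the drugs (3 higher and 2 lower with Dox). Its shares of all genes were 8.81%, 1.46% and 4.72%. Without libraries 3 limma called none of the 10 (unadjusted p under 0.05 for 2 with Dox, and for 8.60% of all genes). DESeq2 then called Cyp2a5 and Acot1 with Dox (adjusted p = 0.00152 and 0.0369), where it called 0.862% of all genes. Leaving out control library 2, control library 3 or Dox library 3 alone also left 0 of the 10 called by limma with Dox. The median log2 difference of the list was 0.26 with Dox and 0.30 with Tc.

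Between Dox libraries 1 and 2 these genes did not move one way. Cyp2b10, a phenobarbital-inducible P450, was 338-fold higher in Dox library 2 (22.1 against 7464 normalized counts) and Por, the electron donor of P450 enzymes, 6.47-fold higher. Cyp7a1, the rate-limiting enzyme of bile acid synthesis, was 7.21-fold lower in Dox library 2 (946 against 131), and Alas1, the first enzyme of heme synthesis, 2.90-fold lower. These 4 genes were chosen after their values were seen.

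Of 9 other genes with a known daily rhythm in liver, limma called none in any comparison, with an unadjusted p under 0.05 for 5 with Dox, 4 with Tc and 4 between the drugs, where the shares of all genes were 29.1%, 11.7% and 21.7%. DESeq2 called 2 with Dox (Wee1 and Elovl3), 2 with Tc (Wee1 and Rgs16) and 2 between the drugs (Rgs16 and Insig2). It called 8.81%, 1.46% and 4.72% of all genes in these comparisons. Elovl3 was at 1131, 0 and 682 normalized counts in Dox libraries 1, 2 and 3, and at 4.2, 5.3 and 5.1 in controls. Dox library 2 thus did not share its rise (limma adjusted p = 0.314). Wee1, a kinase that holds cells before mitosis and a target of CLOCK and ARNTL, was at 61.4, 42.5 and 49.6 normalized counts in controls, at 271.7, 69.0 and 175.1 with Dox and at 249, 216 and 198 with Tc. As for Dbp, Dox library 1 was the highest of all 9 libraries, but unlike Dbp no Dox library was as low as the controls. The limma adjusted p of Wee1 was 0.0593 with Dox and 0.128 with Tc, and 0.578 and 1 without libraries 3. Gys2, the liver glycogen synthase, passed the adjusted p with Dox (0.0181) with a log2 difference of 0.996, just under 2-fold, and 0.949 without libraries 3 (adjusted p = 0.565). The median log2 difference of the list was 0.45 with Dox and 0.03 with Tc. Of the named genes, Wee1, Elovl3, Rgs16, Insig2 and Gys2 were chosen after their values were seen.

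**Figure D5:**
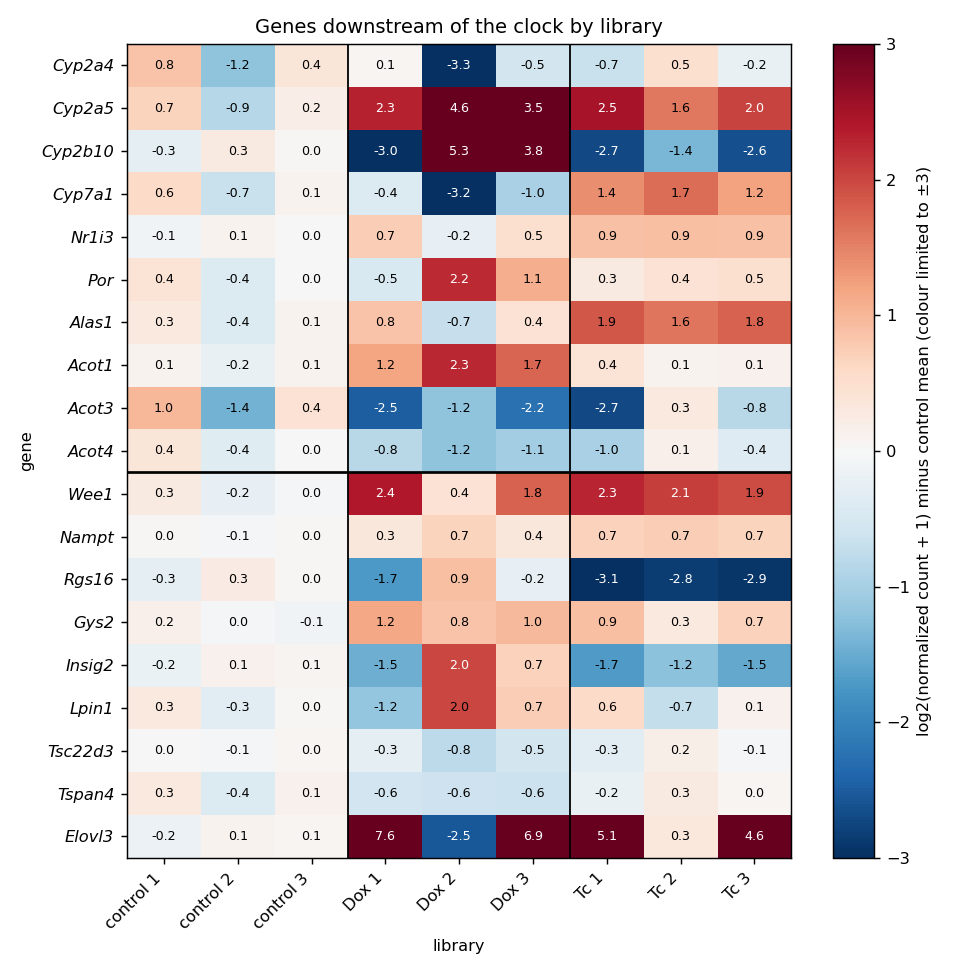
Log2(normalized count + 1) minus the control mean (colour, limited to ±3, with the value in each cell) for 10 PAR bZIP-dependent genes (top) and 9 other rhythmic liver genes (bottom) in the 9 libraries. Cyp2a5 and Acot1 are above the control mean in every Dox library, whereas Cyp2b10, Insig2 and Lpin1 are below it in Dox library 1 and above it in Dox library 2.

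The genes most like each output gene were sought by the Pearson correlation of log2(normalized count + 1) over the 9 libraries, among 9370 genes with a mean of at least 50, as a description in which libraries 3 and the wide Dox split are shared by all. Apol9b (r = 0.996), Sc5d (0.988) and Pold2 (0.987) were most like Dbp. Pycrl (0.994), Slc33a1 (0.994) and Baat (0.993), the last a conjugating enzyme of bile acids, were most like Hlf. Rpl13a (0.983), Eef1b2 (0.975) and Rpl23 (0.969), components of translation, were most like Nfil3. For Ciart the nearest gene was Gys2 (0.984), followed by Guf1 and Vmp1 (0.980 and 0.979). Rarres2 came first for both Noct (0.976) and Usp2 (0.983), and Wee1 ranked 3 for Usp2 (0.974). Tef was most like Fgfr2 (0.975), Bhlhe40 most like Tuba4a (0.976) and Bhlhe41 most like Vkorc1l1 (0.954). Over the 6 libraries without libraries 3 these coefficients of the first-ranked genes ranged from 0.969 to 0.997.

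Levels can be compared between genes only per length. Divided by the union of exon bases in kilobases, the control means (n = 3) were 236 normalized counts per kb for Dbp, 223 for Bhlhe40, 165 for Tef, 118 for Usp2, 95.4 for Hlf, 90.0 for Nfil3, 45.6 for Ciart, 28.4 for Noct and 10.1 for Bhlhe41. Dbp and Bhlhe40 in controls differed by less than the spread of Dbp, whose control SD was 225 around a mean of 707 normalized counts. In the Dox group Bhlhe40 stood first at 601 per kb and Dbp second at 343, and in the Tc group Dbp stood first at 541 and Tef second at 295.

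Other cell types moved with the groups as well. Markers of Kupffer cells (5 genes, all detected in all libraries) summed to between 5695 and 9403 normalized counts in controls, between 1571 and 3769.5 with Dox and between 2678 and 5476 with Tc. Markers of sinusoidal endothelium (4 genes) summed to between 3687 and 3801 in controls, between 1758.5 and 2117 with Dox and between 2740.1 and 3256 with Tc. Stab2, Clec4g and Kdr were below every control library in every Dox library. Lyve1 was at 318.6 in Dox library 2, above every control library. In bulk liver, fewer cells of a type and less RNA per cell cannot be told apart. Immediate early genes (Fos, Jun and Egr1, which answer to handling of tissue and to stress) summed to 2439 in Dox library 2, and to between 198 and 908 in the other 8 libraries. Stellate cell markers (4 genes) summed to between 2165 and 3276 over all libraries, and erythroid markers (5 genes) to between 761.5 and 5962. The erythroid markers went both ways. Means of Hba-a1, Hba-a2, Hbb-bs and Hbb-bt were lower with both drugs (Hbb-bs 2105 in controls, 597 with Dox and 625 with Tc). The mean of Alas2 was 225 in controls, 747 with Dox and 701 with Tc, but Alas2 was at 46 in Dox library 2 and 115 in Tc library 2. Cholangiocyte markers (4 genes, 2 of them tested) summed to between 39.2 and 52.1 in controls, between 87.4 and 104 with Dox, above every control library, and between 45.9 and 64.9 with Tc, and neutrophil markers (4 genes, 3 of them tested, 1 at 0 in a library) to between 3.2 and 267. The cholangiocyte markers did not move 1 way. From controls to Dox, the mean of Sox9 went from 21.4 to 56.3, and those of Krt19 (9.62 to 18.1) and Krt7 (5.91 to 13.5) rose at low counts. The mean of Epcam fell from 10.3 to 7.14. The part of these cell types in the values of the 9 genes was not tested.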

How the data were processed

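Liver RNA was sequenced from 9 libraries. The authors trimmed reads with cutadapt, mapped them to mm10 with STAR 2.7.11ac and GENCODE vM23, counted them per gene with HTSeq 2.0.5 (the kit was directional; the strand setting is not given in the sources used here), and normalized with DESeq2. Each deposited value is thus a signal, the reads of a gene after division by the library's size factor; whole reads were recovered for 100% of values, within a tolerance of 0.01. From these values log2(normalized count + 1) was fitted with limma 3.58.1 in R 4.3.3 (trend, 1 model of 3 groups), on the 12100 genes averaging 10 or more. DESeq2 1.42.0 and edgeR 4.0.16 were alternatives on recovered reads. The tests were checked on simulated counts of independent libraries with the same dispersion for every gene. That check does not cover the wide split of the Dox group or libraries that depend on each other. The members and lists were chosen with earlier results of these data known. All 9 genes are named; core clock genes and downstream genes are named by rule (Arntl, Npas2, Nr1d1, Per2, Per3, and those called), except genes said in the text to be chosen after their values were seen. Coordinates are GENCODE vM21 on GRCm38, and promoters RefSeq GRCm38.p6. Dox and Tc libraries of equal number shifted alike around their group means (r = 0.29, 0.32 and 0.18, numbers from the titles), and control libraries paired with neither (r from -0.08 to 0.06). Protein identity between members was not analysed here.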

Additional observations from a re-analysis of the deposited data

Results flagged for a closer look

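For Nr1d1, every Dox library lay above the mean of the controls and every Tc library below it (log2 difference Dox against Tc 1.21), but the test of that difference did not pass (limma adjusted p = 0.0705; DESeq2 adjusted p = 6.67e-05 with all libraries). For Cyp7a1 the order was the opposite, with every Dox library below the control mean and every Tc library above it (log2 difference Dox against Tc -2.96, limma adjusted p = 0.0957; DESeq2 adjusted p = 0.000719). Without libraries 3, the adjusted p for Dox against Tc was not under 0.05 for either gene, by limma or by DESeq2. Neither gene is one of the 9 output genes, and no cause was tested.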

How the results depend on the processing

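The 27 differences of the 9 genes were recomputed under 21 alternatives, and 178 of 189 values kept their direction for Dox against control, 183 of 189 for Tc against control and 185 of 189 for Dox against Tc. Of the 9 genes, the number called for Dox against control (2 as reported) was 1 with only the 2 groups compared, 1 with the replicate block (Ciart, adjusted p = 0.0169; Bhlhe40, 0.0582), and 0 without libraries 3 by limma, by DESeq2 and in a limma fit of 2 groups, which was chosen after seeing the data. It was 2 for Tc against control with only the 2 groups compared (Dbp and Noct, adjusted p = 0.0195 and 0.0237) and 1 for Dox against Tc by DESeq2. Leaving out single libraries gave from 0 to 5, from 0 to 2 and from 0 to 1 of the 9 genes. The 5 arose without Dox library 2, where limma called 1102 of all 12100 genes.
Core clock genes called with Dox (0 as reported) were 2 with the same total and 1 by DESeq2; with Tc (1 as reported) 2 by DESeq2, 3 with 2 groups, and 0 with the replicate block or without libraries 3 by any fit; between the drugs 2 by DESeq2. Without single libraries they ranged from 0 to 5, 0 to 2 and 0 to 5. PAR bZIP-dependent genes called were, with Dox, 5 by DESeq2 and 0 by limma without libraries 3; with Tc, 2 by DESeq2 and 4 with 2 groups; between the drugs, 5 by DESeq2. Their ranges without single libraries were 0 to 6, 0 to 3 and 0 to 6. Other rhythmic genes called were, with Dox, 2 with the same total, 2 by DESeq2, 1 by edgeR and 1 with the replicate block; with Tc, 2 by DESeq2 and 3 with 2 groups; between the drugs, 2 by DESeq2, and 1 by DESeq2 without libraries 3. Their ranges were 0 to 3, 0 to 2 and 0 to 2. The largest counts with Dox and between the drugs arose without Dox library 1 or 2.
Differences turned sign for Dbp and Nfil3 with Dox in limma without libraries 3 (-0.0613 and -0.0252), Bhlhe40 with Tc by edgeR (-0.000634), Bhlhe41 with Tc by DESeq2, edgeR and DESeq2 without libraries 3 (0.0684, 0.0570 and 0.0201), and Tef between the drugs with the same total (0.0931). They also turned sign without single libraries, where the differences with Dox ranged from -0.45 to 1.03 for Dbp, -0.83 to 0.21 for Hlf and -0.36 to 0.43 for Nfil3, those with Tc from -0.10 to 0.10 for Bhlhe40 and -0.47 to 0.47 for Bhlhe41, and those between the drugs from -0.17 to 0.00347 for Tef, -0.94 to 0.10 for Hlf and -0.0642 to 0.73 for Nfil3. The cause of these changes was not tested. The lowest value among the 9 genes, Bhlhe41 in Dox library 2, rested on 21 reads (exact 95% Poisson interval from 13.0 to 32.1, counting error only), and the lowest values of the other 8 genes on at least 103.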
